A study of Mus musculus with 5 samples.

Results

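Slc17a7, Neurod2, Slc17a6 and Prkcd are marker genes of glutamate neurons: the first pair of the cortex, the second pair of the thalamus and the tissue next to it. They were chosen by their levels in these same 5 libraries, which were known beforehand, so those levels are given as a description, with no test. The counted reads lie at positions of the mouse build GRCm38, whereas the gene names attached to the features come from an annotation of GRCm39. Each marker was therefore read by the feature with the largest overlap with its exons in GENCODE M21, a GRCm38 annotation, whatever name the feature carries. The 4 markers are among 12585 genes to which a feature could be named by position, of 53700 features in all, and all 4 passed the filter on low counts.

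RNA was sequenced from homogenised striatum of adult mice. The WT group has 3 libraries (WT replicates 1, 2 and 3), from wild-type littermates, and the KI group has 2 (KI replicates 1 and 3), from the line that carries the R419W allele of Adcy5, a striatal adenylyl cyclase that makes cAMP. The labels also describe the material as striatal cells, and they give neither zygosity nor age nor how the tissue was cut out. No label ties a library to 1 animal, so spreads and p-values below measure the differences between libraries, which may be technical. The libraries hold 6595105 to 7910584 counts. Levels are CPM, the counts relative to the library's total after TMM scaling, and where none were counted the level may still reach 0.371 to 0.459 CPM (a floor of 3 counts, by library). Penk, the enkephalin gene of striatal projection neurons, stood at 5296 to 8271 CPM in the 5 libraries, while Drd1, Drd2 and Adora2a have no feature named for them. Adcy5 has no feature named for it, so the targeted gene did not check the genotype labels.

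Glutamate neurons load their transmitter into synaptic vesicles with a vesicular transporter. Slc17a7 encodes VGLUT1, the transporter of most cortical and hippocampal projection neurons, and Slc17a6 encodes VGLUT2, that of most thalamic and many hypothalamic and brainstem neurons. Neurod2 is a basic helix-loop-helix transcription factor of cortical excitatory neurons, and Prkcd is a protein kinase C isoform that is abundant in thalamic relay neurons. The axons of cortical and thalamic neurons end in the striatum, but their cell bodies, which hold most of the messenger RNA, lie outside it. In bulk tissue, fewer cells of a type and less RNA per cell cannot be told apart.

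The transporter genes are related in sequence, and their matching exons are shown to let the counted stretches be compared. The feature read for Slc17a6 covers 152 exon bases, 150 of them the coding exon 8 (chr7:51661431-51661580, GRCm38, plus strand). It is shown over exon 8 of Slc17a7 (chr7:45171775-45171924, plus strand), of which 37 and 61 bases were counted by the second feature of Slc17a7 and none by the feature read for it. Capitals mark the bases that differ, and the letters are those of the GENCODE M21 transcripts.
Slc17a6 exon 8: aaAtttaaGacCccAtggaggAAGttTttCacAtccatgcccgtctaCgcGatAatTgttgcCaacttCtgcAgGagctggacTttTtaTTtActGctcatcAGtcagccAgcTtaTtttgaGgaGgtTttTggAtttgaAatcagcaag
Slc17a7 exon 8: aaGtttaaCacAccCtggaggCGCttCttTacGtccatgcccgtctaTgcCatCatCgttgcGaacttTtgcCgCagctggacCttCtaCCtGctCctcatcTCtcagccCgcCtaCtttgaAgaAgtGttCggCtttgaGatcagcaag
The exons have the same length and share 115 of 150 bases (76.7%), with 35 differences and a longest identical run of 14 bases. A second feature over Slc17a6 covers exon 6 (87 coding bases, chr7:51649152-51649238), shown over exon 6 of Slc17a7 (chr7:45170660-45170746).
Slc17a6 exon 6: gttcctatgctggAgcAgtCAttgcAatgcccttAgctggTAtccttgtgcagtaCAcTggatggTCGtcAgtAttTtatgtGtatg
Slc17a7 exon 6: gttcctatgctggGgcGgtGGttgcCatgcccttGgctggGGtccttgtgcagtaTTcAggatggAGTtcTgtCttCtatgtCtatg
Here 69 of 87 bases are identical (79.3%), with 18 differences and a longest identical run of 13 bases. The Prkcd feature holds the whole coding exon 17 of that gene (chr14:30598718-30598846, minus strand, 129 bases), printed here without capitals because it is compared with no other gene.
Prkcd exon 17: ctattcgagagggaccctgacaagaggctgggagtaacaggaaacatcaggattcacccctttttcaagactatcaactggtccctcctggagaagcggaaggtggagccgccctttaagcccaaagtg
Exon 8 is nearly all of the exon sequence in the feature read for Slc17a6, and exon 17 is 129 of the 351 exon bases in that read for Prkcd. Values therefore describe the bases a feature covers and not the whole transcript.

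Slc17a7 (chr7:45163949-45176142, plus strand) was read by a feature over 1477 of its 5392 exon bases (27.4%), of which 28.4% are coding, and the same feature also covers Mir7055. Its level was 73.6, 286.7 and 210.3 CPM in WT replicates 1, 2 and 3 and 96.1 and 22 CPM in KI replicates 1 and 3. WT replicates 2 and 3 were high, KI replicate 3 was low, and WT replicate 1 lay below KI replicate 1, so the groups overlap. The means were 190.2 ± 108.0 CPM (SD, n = 3) in WT and 59.1 ± 52.3 CPM (SD, n = 2) in KI, a fitted log2 difference of -1.69, or a 3.23-fold lower level in KI. Within WT the highest library exceeded the lowest 3.9-fold, and within KI 4.36-fold, so each group spans more than the difference between the groups. With each library left out in turn the log2 difference stayed negative, from -3.11 without KI replicate 1 to -0.98 without KI replicate 3. The exact Poisson 95% intervals of the 5 libraries do not overlap one another, which covers counting error only, since PCR copies are not independent molecules.

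Neurod2 (chr11:98325415-98329648, minus strand) was read over 1890 of 3142 exon bases (60.2%), which include its whole coding sequence of 1149 bases, by a feature that covers no other gene. Its level was 1.58, 32.1 and 30 CPM in WT replicates 1, 2 and 3 and 6.64 and 1.73 CPM in KI replicates 1 and 3. WT replicate 1 was the lowest of the 5 libraries and the other two WT libraries the highest, so both KI libraries fall inside the WT range. WT averaged 21.2 ± 17 CPM (SD, n = 3) and KI 4.19 ± 3.47 CPM (SD, n = 2), with a fitted log2 difference of -2.35. The spread within WT was 20.4-fold, against 5.08-fold between the groups. Leaving out each library in turn gave -3.60 (without KI replicate 1) to -1.67 (without KI replicate 3). WT replicates 2 and 3 did not differ beyond counting error (28.1 to 36.4 and 25.9 to 34.5 CPM), nor did WT replicate 1 and KI replicate 3 (0.814 to 2.75 and 0.948 to 2.91 CPM).

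Slc17a6 (chr7:51622006-51671119, plus strand) was read over 152 of 5399 exon bases (2.82%), with no other gene at those positions. Its level was 47.8, 14.8 and 4.59 CPM in WT replicates 1, 2 and 3 and 32.9 and 4.21 CPM in KI replicates 1 and 3. The 2 libraries numbered 1 were high and WT replicate 3 and KI replicate 3 were low, so each genotype has a high and a low library. The means were 22.4 ± 22.6 CPM in WT (SD, n = 3) and 18.6 ± 20.3 CPM in KI (SD, n = 2), a fitted log2 difference of -0.28. The highest library exceeded the lowest 10.4-fold within WT and 7.82-fold within KI, against 1.22-fold between the groups. The sign of the difference turned with 1 library: it was 0.93 without WT replicate 1, 0.55 without KI replicate 3 and -2.41 without KI replicate 1. WT replicate 3 (3.1 to 6.56 CPM) and KI replicate 3 (2.92 to 5.88 CPM) did not differ beyond counting error.

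Prkcd (chr14:30595354-30626210, minus strand) was read over 351 of 5544 exon bases (6.33%), also with no other gene there. Its level was 90.5, 13.1 and 6.28 CPM in WT replicates 1, 2 and 3 and 47.6 and 9.41 CPM in KI replicates 1 and 3. As for Slc17a6, WT replicate 1 and then KI replicate 1 were the highest, and both KI libraries lie inside the WT range. The means were 36.6 ± 46.8 CPM in WT (SD, n = 3) and 28.5 ± 27 CPM in KI (SD, n = 2), a fitted log2 difference of -0.37. The spread was 14.4-fold within WT and 5.05-fold within KI, against 1.3-fold between the groups. The sign turned here as well, to 1.55 without WT replicate 1 and 0.37 without KI replicate 3, and the value was -1.97 without KI replicate 1. The counting intervals of KI replicate 3 (7.42 to 11.8 CPM) overlap those of its neighbours in the order, WT replicates 2 (10.6 to 16 CPM) and 3 (4.5 to 8.51 CPM).

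**Figure D1:**
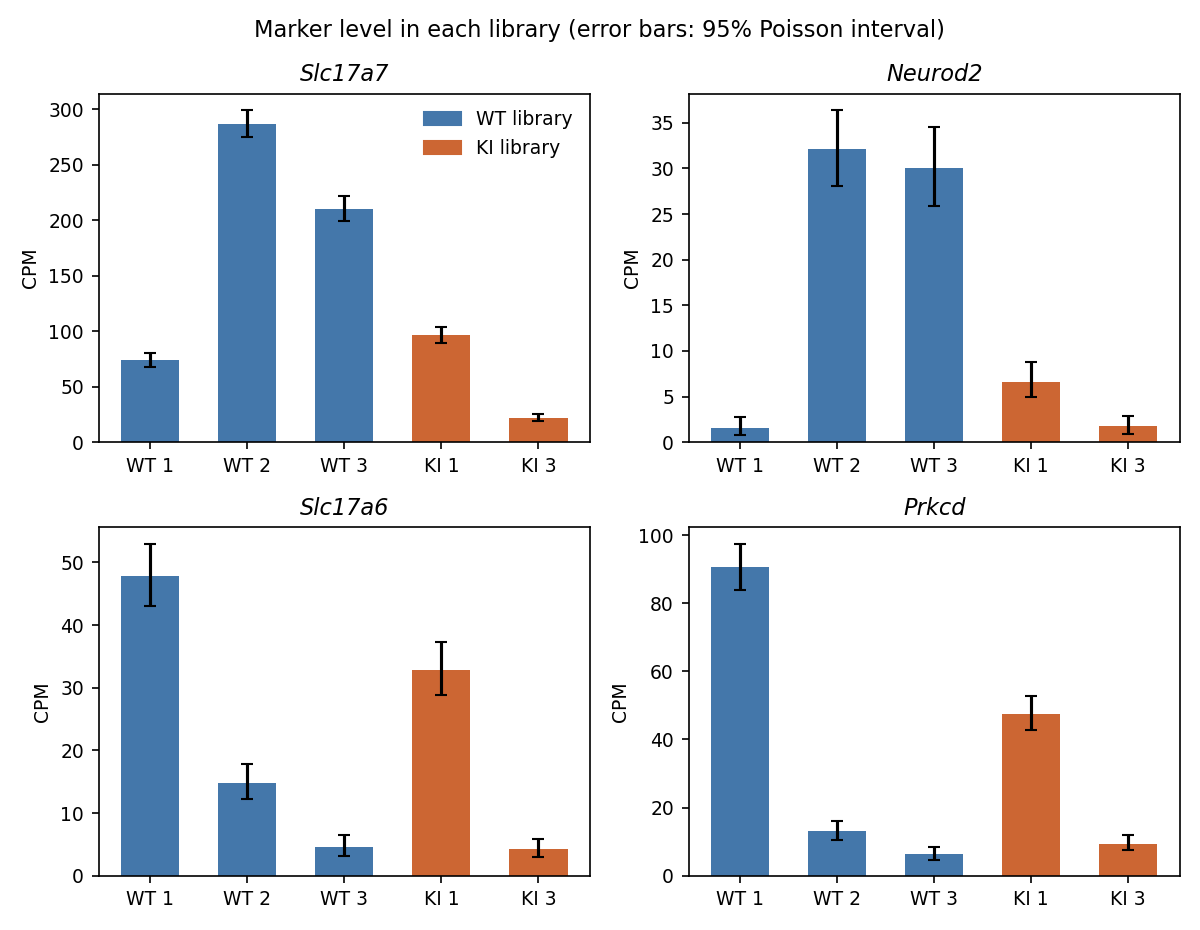
Level of each marker in CPM (vertical axes, linear, from 0) in the 5 libraries (horizontal axes), with exact Poisson 95% intervals as error bars and colour for genotype. Slc17a7 and Neurod2 are highest in WT replicates 2 and 3 (286.7 and 210.3 CPM for Slc17a7), whereas Slc17a6 and Prkcd are highest in WT replicate 1 and KI replicate 1 (47.8 and 32.9 CPM for Slc17a6).

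**Figure D2:**
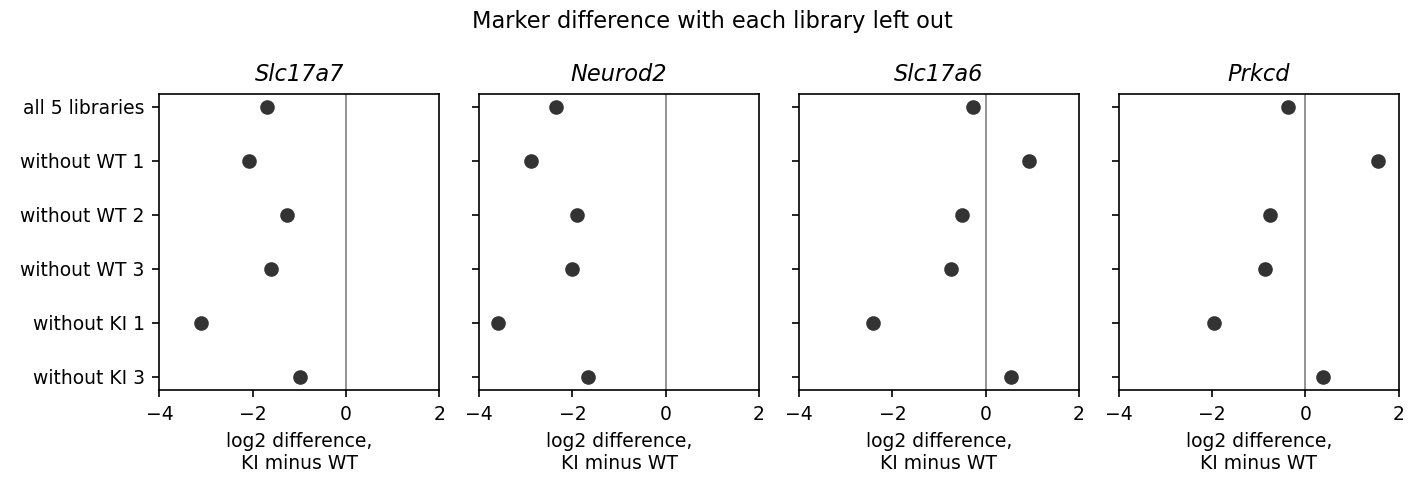
Fitted log2 difference, KI minus WT (horizontal axes), for each marker with all 5 libraries and with each library left out (rows), with a line at 0. The points of Slc17a7 and Neurod2 all lie below 0, whereas those of Slc17a6 and Prkcd lie on both sides, from -2.41 to 0.93 and from -1.97 to 1.55.

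For 0 of the 4 markers did the KI libraries lie wholly above or below the WT libraries, while this held for 22.4% of the 13665 features tested. The members were chosen with these values known, and nothing is read from that count. As a description of the spread within WT, with 1 CPM added, the highest WT library exceeded the lowest 3.86-fold for Slc17a7, 12.8-fold for Neurod2, 8.73-fold for Slc17a6 and 12.6-fold for Prkcd. The same fold had a median of 1.44 over all tested features and a 90th percentile of 2.73. A larger one was found for 2.82% of features in the case of Slc17a7 and for 0.00732%, 0.0659% and 0.0146% in the case of Neurod2, Slc17a6 and Prkcd. These shares are no test either, since the markers were chosen with these levels known.

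Other features over the same genes gave much the same order of libraries, although a fragment that touches 2 features was counted in both, so their counts are not fully separate. Over Slc17a7, a feature on 991 exon bases (also over Flt3l and Gm45713) stood at 61.6, 197.3 and 158.0 CPM in WT replicates 1, 2 and 3 and at 80.4 and 20.3 CPM in KI replicates 1 and 3. A feature on 112 bases of Slc17a7 (also over Ccdc155, Gfy and Pth2) stood at 16.9, 70.4, 51.7, 27.2 and 5.32 CPM in the same order. Both rank the libraries as the largest feature does, with log2 differences of -1.47 and -1.52. Over Neurod2, the features on 109 and 98 exon bases had 0 counts in WT replicate 1 and KI replicate 3 and 9 and 19 counts in WT replicate 2. In WT replicate 3 each had 15 counts, and in KI replicate 1 they had 8 and 0, so most of their counts lie in the libraries where the largest Neurod2 feature was high.

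The second feature over Slc17a6 (91 exon bases) stood at 37.7, 7.75 and 0.918 CPM in WT replicates 1, 2 and 3 and at 31.6 and 1.86 CPM in KI replicates 1 and 3, a 41-fold range with a log2 difference of 0.10. The libraries numbered 1 were again the 2 highest, and the sign of the small group difference was the opposite of the larger feature's. The second feature over Prkcd (208 exon bases) stood at 59.5, 6.01 and 7.5 CPM in WT replicates 1, 2 and 3 and at 27.5 and 6.19 CPM in KI replicates 1 and 3, with a log2 difference of -0.54. Here too WT replicate 1 and KI replicate 1 led, and the 3 low libraries changed places among themselves.

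**Figure D3:**
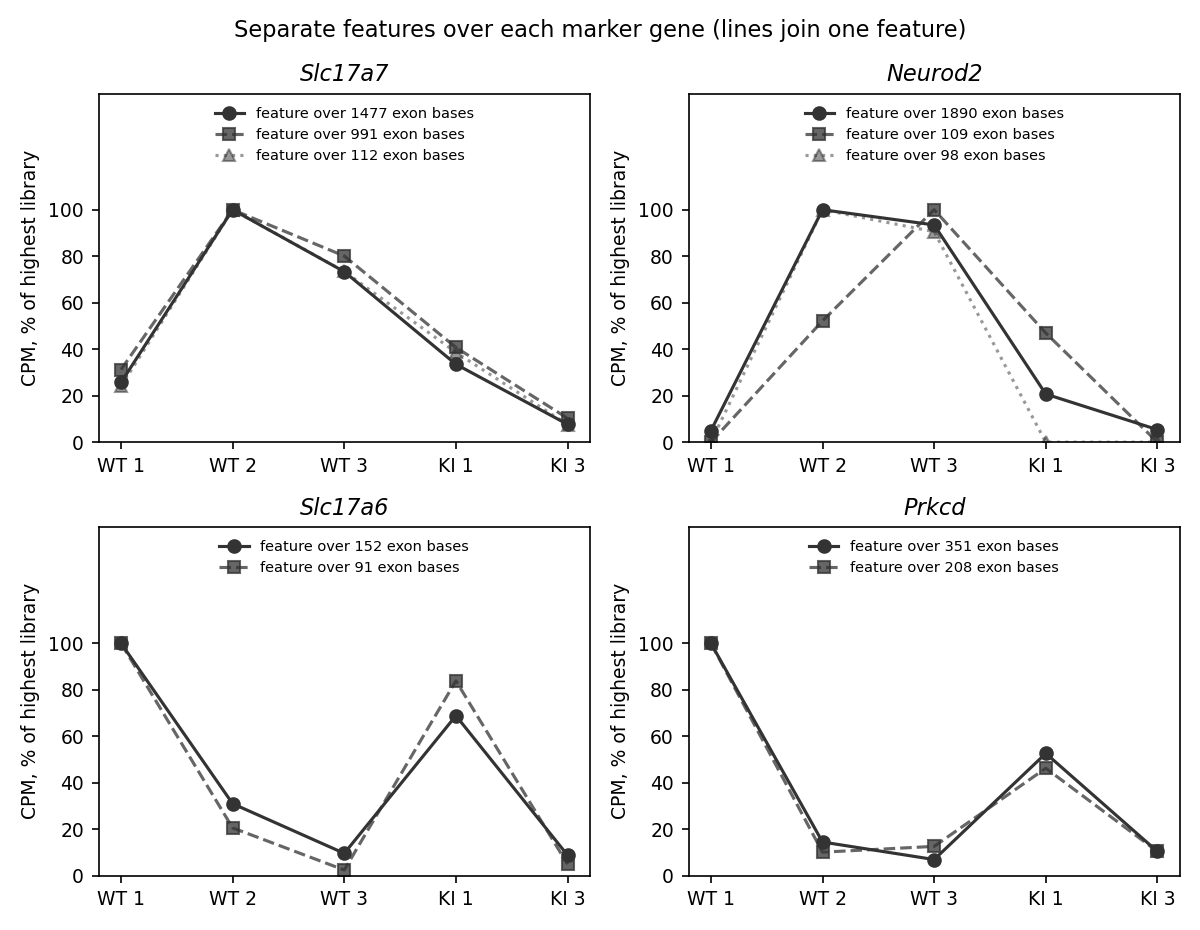
Each line is 1 feature over the named gene, as CPM in percent of that feature's highest library (vertical axes), over the 5 libraries (horizontal axes). The lines of 1 gene share their high and low libraries, except that the low libraries of Slc17a6 and Prkcd change places and that the 2 small Neurod2 features, with at most 19 counts per library, differ in WT replicates 2 and 3 and KI replicate 1.

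The markers thus come as pairs across the 5 libraries. Likeness was measured as the root-mean-square difference between centred profiles, each being log2(CPM + 1) minus its mean over the 5 libraries, so that smaller is more alike. It was 0.42 between Slc17a6 and Prkcd and 0.74 between Slc17a7 and Neurod2. Across the pairs it was 1.72 for Slc17a7 and Slc17a6, 2.02 for Slc17a7 and Prkcd, 2.36 for Neurod2 and Slc17a6 and 2.65 for Neurod2 and Prkcd. For scale, the 2 features over Slc17a6 differed by 0.51 and those over Prkcd by 0.41, so Slc17a6 and Prkcd were about as close to each other as to their own second features.

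The balance of the transporters shows the same contrast as 1 number per library. Per covered exon base, the ratio of Slc17a7 to Slc17a6 was 0.158, 1.99 and 4.71 in WT replicates 1, 2 and 3 and 0.3 and 0.539 in KI replicates 1 and 3. The ratio was highest in WT replicates 3 and 2 and lowest in WT replicate 1. Which transporter had the higher level cannot be read from it, since the ratio of the CPM values, without division by covered bases, was above 1 in every library (1.54, 19.3 and 45.8 in WT and 2.92 and 5.24 in KI). Levels per covered kilobase also moved with the feature: averaged over the 5 libraries, the 3 features over Slc17a7 stood at 93.3, 104.4 and 306.6 CPM and the 2 over Slc17a6 at 137.3 and 175.4 CPM, so no order of the genes is given. Such levels also count reads on the parts of each feature that lie off the exons, since the intervals total 397 bases for Slc17a6, 4362 for Prkcd, 2937 for Slc17a7 and 5210 for Neurod2.

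The genes with profiles most like the markers were drawn from 4044 protein-coding genes with at least 5 CPM on average. Nearest to Slc17a6 after Prkcd were Tcf7l2 (0.44), a transcription factor of thalamic neurons, Plekhd1 (0.46), the signalling ligand Wnt4 (0.48) and the actin regulator Triobp (0.49), against a median of 1.33 over the compared genes. Nearest to Prkcd after Slc17a6 were Tcf7l2 (0.49), Plekhd1 (0.51), Patj (0.56) and Amotl1 (0.58), against a median of 1.40. Tcf7l2 stood at 30.9, 5.61 and 4.74 CPM in WT replicates 1, 2 and 3 and at 15.4 and 2.23 CPM in KI replicates 1 and 3, the same high and low libraries as the 2 thalamic markers. The features of Patj and Amotl1 compared here overlap 38 and 3 exon bases, so their reads may lie off those genes' exons. For Amotl1 this is not the feature of largest overlap, because only features over 1 gene were compared; it stood at 20, 7.08, 2.14, 14 and 6.19 CPM in the order WT replicates 1, 2, 3 and KI replicates 1, 3.

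Nearest to Slc17a7 were Egr3 (0.34), an activity-induced transcription factor, Ckm (0.58), Coa7 (0.64), the Wnt agonist Rspo1 (0.67) and Ccdc187 (0.68), against a median of 1.29. Nearest to Neurod2 were Egr3 (0.82), Nwd2 (0.98), Ccdc187 (1.01), Crip1 (1.05) and the cannabinoid receptor gene Cnr1 (1.06), against a median of 1.62. Slc17a7, at 0.74 from Neurod2, is not in the second list because its feature covers 2 genes and only features over 1 gene were compared. Egr3 is read over only 14 exon bases and Coa7 over 27, and Egr3 stood at 4.86, 19.5, 12.1, 7.45 and 1.86 CPM in the order WT replicates 1, 2, 3 and KI replicates 1, 3. Rspo1, a gene of the cortical list below, stood at 4.99, 8.82, 11.9, 7.86 and 2.23 CPM in that order.

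The promoters of the cortical pair are shown because Neurod2-type factors bind E-box motifs. Why those genes move together across libraries was not tested. The 250 bases before each start in RefSeq (GRCm38.p6) are chr7:45163671-45163920, plus strand, for Slc17a7 and chr11:98329646-98329895, minus strand, for Neurod2. Capitals mark CAGATG, an E-box, found on either strand.
Slc17a7 promoter: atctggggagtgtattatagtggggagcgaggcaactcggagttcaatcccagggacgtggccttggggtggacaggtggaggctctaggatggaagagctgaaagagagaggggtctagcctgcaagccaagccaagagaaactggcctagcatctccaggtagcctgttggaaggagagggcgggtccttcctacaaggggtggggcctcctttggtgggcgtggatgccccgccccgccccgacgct
Neurod2 promoter: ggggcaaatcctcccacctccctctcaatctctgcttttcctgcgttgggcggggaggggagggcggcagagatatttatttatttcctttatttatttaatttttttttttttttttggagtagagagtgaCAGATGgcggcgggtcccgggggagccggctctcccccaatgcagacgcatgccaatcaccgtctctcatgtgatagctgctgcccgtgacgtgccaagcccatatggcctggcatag
The Neurod2 window holds 1 match to CAGATG and the Slc17a7 window 0, and neither holds CAGCTG or CACGTG. Only these forms of the E-box, CANNTG, were searched for. Other forms are left unmarked and do occur, such as CAGGTG in the Slc17a7 window and CATATG in the Neurod2 window. Among the windows of the thalamic pair, 1 of the 2 of Slc17a6 holds 1 CAGATG, and those of Prkcd hold 1 CACGTG in the one and 2 CAGCTG in the other. Of 32851 RefSeq promoter windows of this length, 14.4% hold CAGATG, 13.0% CAGCTG and 6.0% CACGTG, counted on both strands. These are matches of letters and show nothing about binding.

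Listed thalamic genes other than the 2 markers were high and low in the same libraries as Slc17a6 and Prkcd. Of 24 listed genes 12 had a feature, and all 12 were tested. Of all tested features, WT replicates 1, 2 and 3 were the highest library for 22.6%, 20.2% and 18% and KI replicates 1 and 3 for 18.3% and 20.8%. WT replicate 1 was the highest for 11 of the 12 thalamic genes, and WT replicate 1 and KI replicate 1 were the 2 highest for 10 of 12, against 13.1%. With 1 CPM added, WT replicate 1 exceeded WT replicate 3 for 12 of 12 genes, with a median of 3.19-fold and a range of 1.48 to 9.56 (all features: 49.4% higher, median 0.997). KI replicate 1 exceeded KI replicate 3 for 12 of 12, by a median of 2.37-fold and a range of 1.14 to 5.09 (all features: 48.5% higher, median 0.991). The exception for the highest library was Amotl1, at 4.81 CPM in WT replicate 2 and 2.89 CPM in WT replicate 1 by its feature of largest overlap (121 exon bases, also over Gm34263). The feature over 3 of its exon bases, named above as near to Prkcd, was instead highest in WT replicate 1, so the library that leads for Amotl1 depends on the feature.

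Summed over the 12 thalamic genes, the level was 955.9, 251.3 and 210.3 CPM in WT replicates 1, 2 and 3 and 495.5 and 185.1 CPM in KI replicates 1 and 3. Without Ptpn3, a tyrosine phosphatase gene with the highest level of the list, the sums were 420.4, 153.6 and 155.2 CPM in WT and 273.7 and 132.6 CPM in KI, with the same 2 libraries on top. Ptpn3 stood at 535.5, 97.7, 55.1, 221.8 and 52.5 CPM, and Rora, a nuclear receptor gene, at 111.2, 37, 36.6, 56.9 and 31.7 CPM, in the order WT replicates 1, 2, 3 and KI replicates 1, 3. Both were named after their values were seen, and the Ptpn3 feature also covers Gm12536.

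Between genotypes, 0 of the 12 thalamic genes passed the quasi-likelihood test of edgeR at an adjusted p of 0.05, where 0.102% of all features did (14 of 13665, with 6 or 0.0439% higher and 8 or 0.0585% lower in KI, or 9 and 7 with library totals in place of TMM). The 14 became 161 without WT replicate 1, 3 without WT replicate 2, 2 without WT replicate 3, 30 without KI replicate 1 and 6 without KI replicate 3. An unadjusted p under 0.05 was reached by 1 of the 12 and by 6.4% of all features. The fitted log2 differences were negative for 10 genes and positive for 2, with a median of -0.39, against a median of -0.00 over all features. That median was 0.52 without WT replicate 1, 0.14 without KI replicate 3 and -1.62 without KI replicate 1. The smallest p belonged to Tnnt1, a troponin gene, at 9.91 ± 6.89 CPM in WT (SD, n = 3) and 3.03 ± 1.84 CPM in KI (SD, n = 2; log2 difference -1.71, SE 0.64, edgeR adjusted p = 0.598). Next was Lef1, a transcription factor of Wnt signalling, at 9.36 ± 6.4 and 3.89 ± 4.46 CPM (log2 difference -1.27, edgeR adjusted p = 0.885), whose feature also covers Gm42449. Tcf7l2 had a log2 difference of -0.65 (SE 0.79, edgeR adjusted p = 0.999).

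Listed cortical genes other than the 2 markers spanned a narrower range than Slc17a7 and Neurod2. Of 43 listed genes 12 had a feature and were tested; Tbr1 and Neurod6, defining factors of cortical projection neurons, were not among them. WT replicates 2 and 3 were the 2 highest libraries for 5 of 12 genes, against 13% of all features. The genes summed to 562.6, 697.4 and 650.8 CPM in WT replicates 1, 2 and 3 and to 556.1 and 535.3 CPM in KI replicates 1 and 3. Much of each sum came from Chn1, the gene of highest level, at 234.3, 316.8 and 293.3 CPM in WT and 209.6 and 222.7 CPM in KI. The median centred log2 level of the list was -0.13, 0.31 and 0.11 in WT and 0.15 and -0.20 in KI, whereas that of the thalamic list was 1.23, -0.39 and -0.49 in WT and 0.50 and -0.99 in KI.

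Between genotypes, 0 of the 12 cortical genes passed the edgeR test, and 2 had an unadjusted p under 0.05. The log2 differences were negative for 7 and positive for 5, with a median of -0.30 (-0.04 without KI replicate 3 and -0.45 without WT replicate 1). For 2 genes both KI libraries lay below all WT libraries, against 11.1% of all features. Those 2 also had the smallest p: Chn1, the gene of a GTPase-activating protein that acts on Rac, at 281.4 ± 42.5 CPM in WT (SD, n = 3) and 216.1 ± 9.21 CPM in KI (SD, n = 2; log2 difference -0.38, SE 0.14, edgeR adjusted p = 0.567), and Dkk3, a secreted protein of the Dickkopf family, at 102.6 ± 24 and 75.4 ± 2.16 CPM (log2 difference -0.45, SE 0.18, edgeR adjusted p = 0.681). The Chn1 feature also covers Chn1os1. Slc30a3, the vesicular zinc transporter of cortical terminals, stood at 0.657, 3.61 and 1.99 CPM in WT and at 2.57 and 0.991 CPM in KI.

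**Figure D4:**
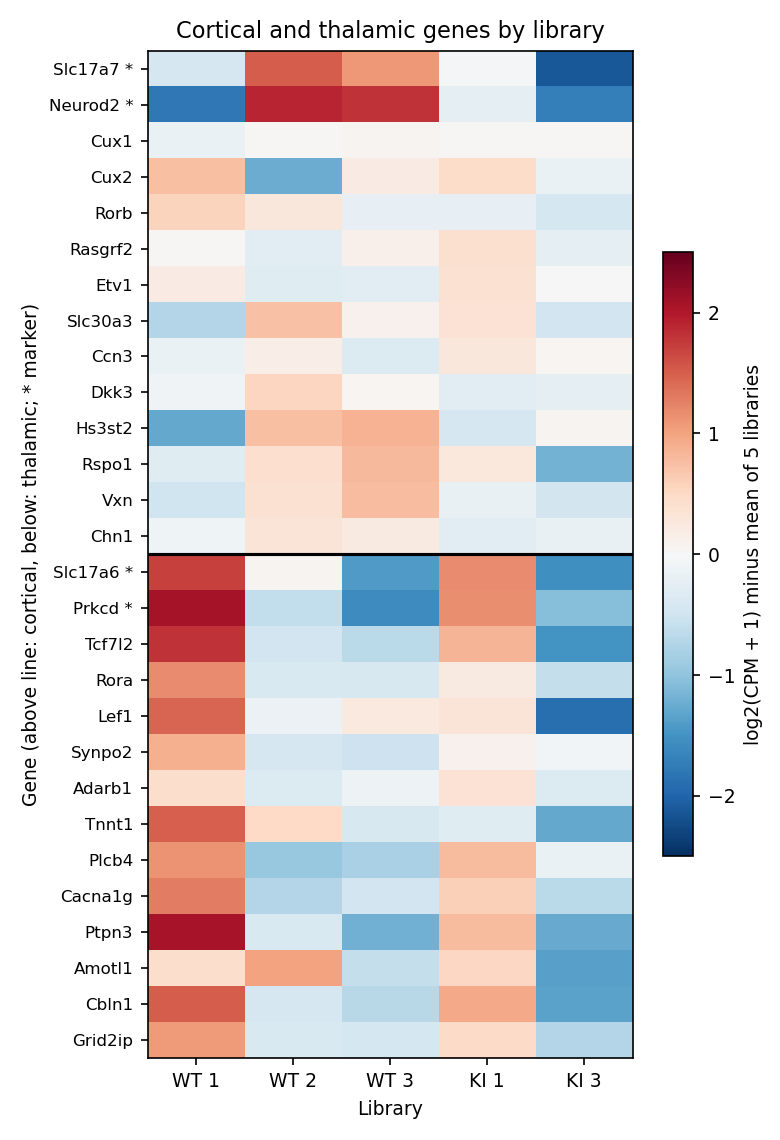
Colour gives log2(CPM + 1) minus the gene's mean over the 5 libraries (columns) for the cortical genes above the line and the thalamic genes below it (rows), with the 4 markers starred. In the lower block WT replicate 1 is the highest library in every row but Amotl1, and the upper block has no library that leads throughout.

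The other genes of vesicle loading, glutamate supply and clearance summed to 7101, 5553 and 5763 CPM in WT replicates 1, 2 and 3 and to 6435 and 5474 CPM in KI replicates 1 and 3. Of 31 listed genes 15 were tested, 0 passed the edgeR test and 1 had an unadjusted p under 0.05, with 9 positive and 6 negative log2 differences and a median of 0.09. Slc38a1, a neuronal glutamine transporter, stood at 90.3 ± 4.02 CPM in WT (SD, n = 3) and 110.0 ± 6.54 CPM in KI (SD, n = 2; log2 difference 0.28, edgeR adjusted p = 0.798). Slc17a8, which encodes VGLUT3, had no named feature.

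Prkcd's own family was tested at 6 of 13 listed genes, with 0 passing the edgeR test and 0 at an unadjusted p under 0.05. The 6 log2 differences were all negative, with a median of -0.25. WT replicates 2 and 3 were the 2 highest libraries for 3 of the 6, against 13% of all features. WT replicate 1 and KI replicate 1, the 2 highest for Prkcd, were so for 0 of the 6, against 13.1% of all features. Prkcq, which encodes an isoform that, like that of Prkcd, needs no calcium, stood at 8.85 ± 3.92 CPM in WT (SD, n = 3) and 5.39 ± 1.49 CPM in KI (SD, n = 2; log2 difference -0.71, edgeR adjusted p = 0.937).

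Striatal genes were mostly highest in WT replicate 2, the library with the highest Slc17a7. Of 32 listed genes of spiny projection neurons 11 were tested, and WT replicate 2 was the highest library for 9 of them, against 20.2% of all features. WT replicates 2 and 3 were the 2 highest for 7, against 13% of all features. With 0 past the edgeR test and 3 at an unadjusted p under 0.05, the median log2 difference was -0.29. Rgs9, a striatal regulator of G protein signalling, stood at 300.9, 506.8 and 419.1 CPM in WT replicates 1, 2 and 3 and at 177.2 and 223.0 CPM in KI replicates 1 and 3 (log2 difference -1.03, SE 0.19, edgeR adjusted p = 0.0634). Penk stood at 7449 ± 778.9 CPM in WT (SD, n = 3) and 5599 ± 429.0 CPM in KI (SD, n = 2; -0.41, SE 0.09, edgeR adjusted p = 0.0992), and its feature also covers A830012C17Rik. The DESeq2 Wald test called both. In both genes WT replicate 1, low in Slc17a7 and Neurod2, was the lowest WT library, and the part of the cortical and thalamic marker levels in these differences was not tested.

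Genes of the hypothalamus, septum and basal forebrain were highest in KI replicate 1 for 6 of the 9 tested (32 listed), against 18.3% of all features. They summed to 584.2, 442.9 and 469.7 CPM in WT replicates 1, 2 and 3 and to 711.9 and 583.7 CPM in KI replicates 1 and 3. Of the 9, 0 passed the edgeR test, 4 had an unadjusted p under 0.05 and 8 had a positive log2 difference, with a median of 0.46. For 3 both KI libraries lay above WT, against 11.3% of all features. Calcr, the calcitonin receptor gene, stood at 2.34 ± 2.36 CPM in WT (SD, n = 3) and 14.8 ± 3.05 CPM in KI (SD, n = 2; log2 difference 2.65, SE 0.79, edgeR adjusted p = 0.368). Zcchc12 stood at 80.1 ± 8.02 and 118.2 ± 5.24 CPM (0.56, SE 0.14, edgeR adjusted p = 0.198). KI replicate 1 is also a library of high Slc17a6, which hypothalamic neurons express, and whether both go together was not tested.

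Over all 12 lists, 242 genes in all, 88 were tested and 0 passed the edgeR test. An unadjusted p under 0.05 was reached by 13 of the 88 and by 6.4% of all features. The DESeq2 Wald test called 3 (Rgs9, Penk and Zcchc12) of the 46 listed genes with an adjusted p, and 128 of 4921 such features in all. By default DESeq2 gives no adjusted p to features of low mean count, so these shares cover other features than those of edgeR. Without WT replicate 1 edgeR called 7 of 88 listed genes, against 161 of 13221 features in all. It called 0 of them without WT replicate 2 or WT replicate 3, against 3 of 13141 and 2 of 13170 features. The lists were written with earlier results known, so these counts are a description. The number of changed features in the whole table moved with the marker taken along in the fit: 14 without any, 2 with the level of Slc17a7 as a covariate, 7 with Neurod2, 144 with Slc17a6 and 222 with Prkcd. The 2 and the 7 are among the 14, and all 14 are among the 144 and among the 222. With 5 libraries such a fit leaves few degrees of freedom, and because Slc17a7 and Neurod2 are lower on average in KI, tissue content and genotype cannot be told apart for genes that follow them.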

How the data were processed

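The deposited values are raw counts of fragments per feature, which the authors made with featureCounts 2.0.1 on an Ensembl 103 annotation of GRCm39, per the file headers. Per the same headers, fragments that overlapped several features were counted in each, reads mapping to several places were dropped, and strand was ignored although the Illumina kit is stranded (per the labels' protocols), so a gene's reads cannot be separated from those of a gene that overlaps it on either strand. Neither aligner nor alignment build is stated (not given in the sources used here).

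Features were laid over GENCODE M21 exons (GRCm38) by position with bedtools 2.31.1, with no conversion of coordinates. A feature was named by the only gene there, or by the only protein-coding gene, and each gene was read by its feature of largest overlap. This named 16422 features over 12585 genes, and 33901 features lie over no GRCm38 exon and hold 1.06% of the counts. KI and WT were compared over all features with edgeR 4.0.16 in R 4.3.3 (filterByExpr, TMM, quasi-likelihood F-test, Benjamini-Hochberg adjustment, threshold 0.05). The test was also run on simulated counts. DESeq2 1.42.0, other scalings, no filter, other ways of naming features, marker covariates, a replicate block and leaving out each library were alternatives.

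The members and the 12 gene lists were chosen with earlier results of these data known. The genes named are the 4 markers, the 2 genes of smallest p in each list (none passed the threshold), the 5 genes nearest in profile to each marker (any feature over 1 gene alone could enter there), and 12 genes set out by name. Of these 12, Slc17a8, Tbr1, Neurod6, Lhx9, Calb2 and Gad2 had no named feature, and some genes the rule takes are not reported here. Sequences are from the GENCODE M21 transcripts, with exons numbered in the principal transcript, and, for promoters, from RefSeq (GRCm38.p6).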

Additional observations from a re-analysis of the deposited data

How the results depend on the processing

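The number of changed features, 14 in the edgeR test, was 183 without a low-count filter (24598 features tested) and 128 with the DESeq2 Wald test (4921 features with an adjusted p). It was 154 with the replicate block and 2 to 161 with 1 WT library left out. With Slc17a7, Neurod2, Slc17a6 and Prkcd as covariates it was 2, 7, 144 and 222. Other size factors gave 15 and library totals 16. Of the 14, all were among the 183 and the 154 and 12 among the 128. The listed genes changed, 0 of 88 in the edgeR test, were 7 of 93 without a filter and 3 of 46 with DESeq2. They were 5 of 88 with the replicate block (Ptpn3, Calcr, Penk, Rgs9 and Cplx1) and 0 to 7 with 1 WT library left out. The cause was not tested.

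By the files' own labels the log2 difference was -0.10 for Slc17a7, -0.07 for Neurod2 and -1.31 for Prkcd (-0.37 by position), Slc17a6 gave no value because its labelled feature has 0 counts, and the median of the cortical list was 0.08; features over 1 gene alone gave -0.53 for that list. These settings read other features. With 1 library left out the ranges were -3.11 to -0.98 for Slc17a7, -3.60 to -1.67 for Neurod2, -2.41 to 0.93 for Slc17a6, -1.97 to 1.55 for Prkcd, -0.45 to -0.04 for the cortical median and -1.62 to 0.52 for the thalamic median. Without a KI library the other is assumed to vary like WT. Taking the largest overlap whatever other genes lie there, an alternative chosen after seeing the data, gave medians of -0.17 and -0.30.

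Replicate numbers are shared by 2 pairs of libraries, whose deviations from their group means correlated at 0.102 (replicates 1) and 0.0632 (replicates 3). With 2 KI libraries these deviations mirror each other (-0.102 for WT replicate 1 and KI replicate 3). The correlations therefore cannot decide whether the numbers pair libraries, which no label states. The numbers are used here as names. With the replicate block the log2 differences were -1.35 for Slc17a7, -1.20 for Neurod2, -0.38 for Slc17a6 and -0.33 for Prkcd, with list medians of -0.12 (cortical) and -0.64 (thalamic). Depth limits Neurod2 most, with 12 counts in WT replicate 1 and 14 in KI replicate 3.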

Other observations

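Among genes of other cell types, choroid plexus genes set 1 library apart. Ttr, the transthyretin gene that choroid plexus epithelium expresses at high levels, stood at 41.8, 55.5 and 61.8 CPM in WT replicates 1, 2 and 3 and at 28 and 2093 CPM in KI replicates 1 and 3. Its feature also covers Gm16090 (log2 difference 4.32, edgeR adjusted p = 0.105). Enpp2, a phospholipase gene of choroid plexus and oligodendrocytes, stood at 264.0 CPM in KI replicate 1 and 517.5 CPM in KI replicate 3 (0.25, edgeR adjusted p = 0.977). Of the 13 listed genes 4 had a feature, and they summed to 2617 CPM in KI replicate 3 and to 292.3 to 412.4 CPM in the other libraries. KI replicate 3 was also the library with the lowest Slc17a7 and Slc17a6, and the 2 measures were not tested against each other.

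Oligodendrocyte genes were highest in WT replicate 1, the library with the highest Slc17a6 and Prkcd, for 6 of 6 genes, against 22.6% of all features. Their sum was 3338, 2712 and 2626 CPM in WT replicates 1, 2 and 3 and 2604 and 2490 CPM in KI replicates 1 and 3. The myelin genes Cnp (1005 ± 177.9 CPM in WT and 824.4 ± 6.64 CPM in KI) and Mag (307.6 ± 53.2 and 251.9 ± 11.7 CPM) led that list by p, each with a log2 difference of -0.29 (edgeR adjusted p = 0.763 and 0.81; SD, n = 3 and 2). Median log2 differences were 0.01 for interneuron genes, -0.19 for endothelial genes, -0.35 for microglial genes, -0.17 for astrocyte genes and -0.21 for oligodendrocyte genes, with 0 genes past the edgeR test in each list. By the smallest p, interneuron genes were led by Slc5a7 (-0.33) and Gad1 (0.09), and endothelial genes by Tek (-0.70) and the glucose transporter gene Slc2a1 (0.21). Microglial genes were led by Trem2 (-0.62) and Aif1 (-0.35), and astrocyte genes by the glutamate transporter gene Slc1a3 (-0.17) and Aldh1l1 (-0.19). Gad1, a GABA synthesis gene of most striatal neurons, stood at 263.0 ± 35.3 CPM in WT (SD, n = 3) and 280.8 ± 18.6 CPM in KI (SD, n = 2).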
